A study of Mus musculus with 28 samples.

Results

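Trichostatin A (TSA), an inhibitor of histone deacetylases, was compared with its vehicle in the hippocampus of cbp+/- female mice that stayed in the standard cage. The 6 arrays compared were 3 from cbp+/- mice given TSA and 3 from cbp+/- mice given vehicle, chosen by their labels from the 28 arrays of the series. TSA was injected into the peritoneum at 2.4 mg/kg, vehicle was DMSO in saline, and hippocampi were taken 75 min after TSA. The mice were C57/DBA F1 hybrids of 3 months, and each array held RNA pooled from 3 to 4 animals, so error terms describe variation among pools and not among single mice. The mutant mice carry 1 disrupted copy of the gene for CBP, and the TSA and vehicle groups share this genotype. A further 18 injected arrays gave the background for each result: TSA against vehicle, 3 arrays each, in wild-type littermates in the standard cage, in cbp+/- mice during novelty and in wild-type mice during novelty. Novelty was 1 h in an unfamiliar box, begun 15 min after TSA. The 4 naive arrays were left out.

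Histone deacetylases remove acetyl groups from the tails of histones and from many other proteins, and acetyltransferases such as CBP put them on. CBP is also a coactivator recruited by CREB and other activity-regulated transcription factors, and loss of 1 copy impairs long-term memory in mice. Inhibitors of the class I and class II enzymes raise histone acetylation within minutes to hours, and some genes then go up and others go down. The comparison asked which hippocampal transcripts differ after the inhibitor in mice labelled cbp+/-, without a learning or novelty stimulus.

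Replicates 1, 2 and 3 of TSA were paired with replicates 3, 4 and 5 of vehicle, and a change is the mean of the 3 paired differences (TSA minus vehicle) on the log2 scale, given with the SE of a limma fit over the 24 injected arrays. Array medians of the 6 arrays lay between 5.46 and 5.58, and the number of arrays limits the precision: the median 95% interval of a change reached 0.21 to either side. Crebbp, the gene for CBP, stood at 9.75, 9.74 and 9.06 in TSA arrays and at 9.46, 9.77 and 9.16 in vehicle arrays, a difference of 0.05 ± 0.12. It averaged 9.52 ± 0.40 after TSA and 9.46 ± 0.30 after vehicle in these arrays, against 9.10 ± 0.38 after TSA and 9.33 ± 0.25 after vehicle in wild-type cage mice (SD, n = 3 each), so the arrays labelled cbp+/- did not have the lower level. Which part of the transcript the probes of this gene cover was not known here, so the level checks neither genotype label.

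The first pair of arrays held choroid plexus RNA. Ttr, the transthyretin gene that choroid plexus makes in large amounts, was at 12.21, 6.98 and 7.86 in TSA arrays and at 12.60, 6.89 and 8.47 in vehicle arrays. Over the 13 choroid plexus markers measured, the mean deviation from the average of the 24 arrays was 1.02, -0.30 and -0.21 in TSA arrays and 1.40, -0.31 and -0.16 in vehicle arrays. TSA replicate 1 and vehicle replicate 3 thus stood apart from the other 4 arrays and formed 1 pair, and no marker of this list had an unadjusted p under 0.05. The other cell type lists had deviations between -0.25 and 0.34 in all 6 arrays. Markers of CA1 and CA3 pyramidal neurons averaged 9.15 and those of dentate granule neurons 7.29 over the 24 arrays, so the tissue carried the defining transcripts of hippocampus.

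**Figure D1:**
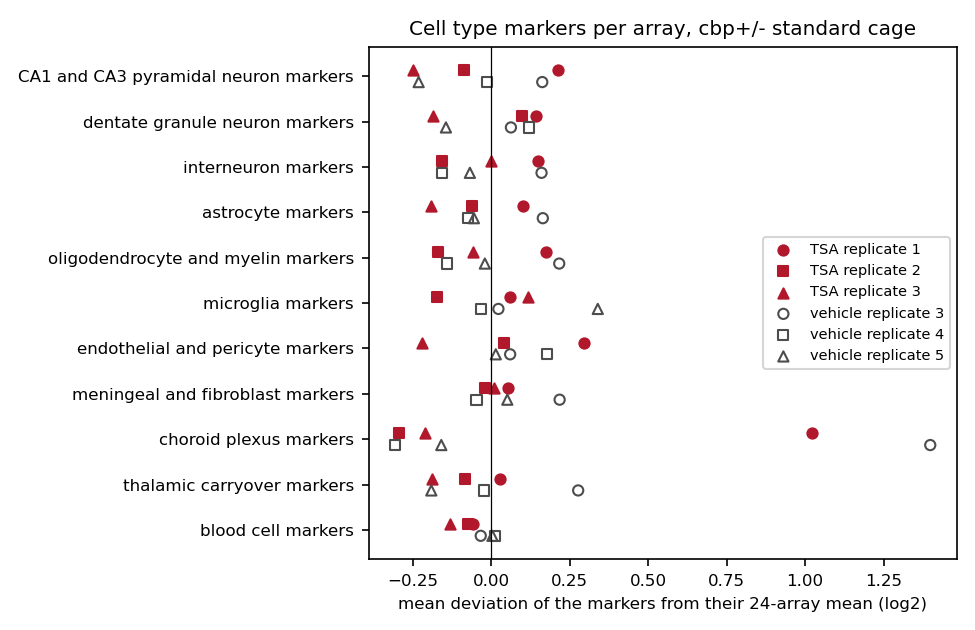
Mean deviation of 11 cell type marker lists from their 24-array mean (log2, horizontal axis) in each of the 6 arrays. Filled red symbols are TSA replicates 1 to 3, open symbols vehicle replicates 3 to 5, and pairs share a shape. The choroid plexus markers of TSA replicate 1 (1.02) and vehicle replicate 3 (1.40) stand apart from the other 4 arrays.

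A single gene passed the test. Fv1, a mouse restriction factor that descends from a retroviral gag gene and blocks murine leukaemia viruses after they enter the cell, rose after TSA. It was at 6.87, 7.84 and 6.99 in TSA arrays and at 6.25, 6.54 and 6.13 in vehicle arrays. All TSA arrays lay above all vehicle arrays, and TSA replicate 2 was the highest of the 6. The paired differences were 0.62, 1.31 and 0.86, a mean of 0.93 ± 0.13 or 1.90-fold (limma, adjusted p = 0.00611, n = 3 pairs). The call made 0.00502% of the 19938 genes tested higher and 0% lower, while 486 genes (2.44%) were higher and 555 (2.78%) lower at an unadjusted p under 0.05. The call was lost without array pair 2 (0.74, adjusted p = 0.60) and without pair 3 (0.97, 0.17), without TSA replicate 2 (0.74, 0.12), vehicle replicate 4 (0.90, 0.12) or vehicle replicate 5 (0.91, 0.093), and in the fit without the pairing (0.93 ± 0.23, adjusted p = 1).

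Fv1 had a difference of the same sign in each other background: 0.83 in wild-type cage mice, 0.37 in cbp+/- novelty mice and 0.57 in wild-type novelty mice. Against cbp+/- novelty mice the interaction was 0.56 (95% interval 0.17 to 0.94, limma, adjusted p = 1). Averaged over those 18 arrays, which share no sample with the 6, it rose by 0.59 (limma, adjusted p = 0.000411). That fit had array set as a block, which no label names. Without the block those arrays gave only 2 genes higher among all genes. Its neighbours on chromosome 4 in RefSeq order had smaller differences. Miip, the next gene on one side, differed by 0.25 ± 0.13, with paired differences of 0.22, 0.20 and 0.32. Mfn2, a mitochondrial fusion gene on the other side, differed by -0.03 ± 0.10, and the remaining 6 neighbours by -0.22 to 0.12. None of the 8 neighbours passed the test.

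**Figure D2:**
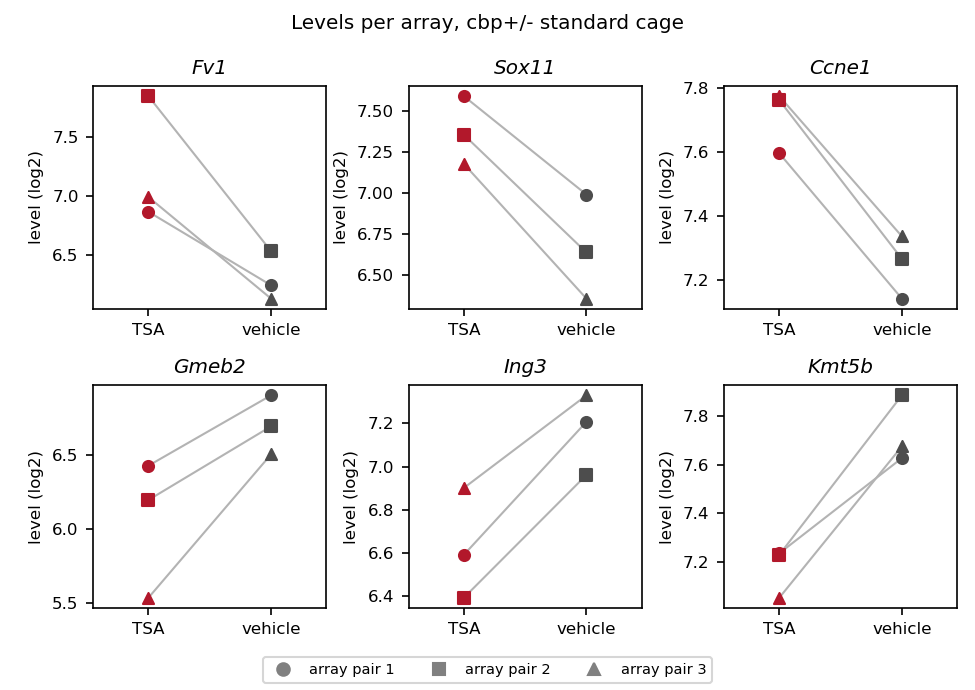
Levels (log2, vertical axis, scaled per panel) of 6 genes in the 3 TSA arrays (red, left) and the 3 vehicle arrays (grey, right), with lines joining array pairs. Fv1, Sox11 and Ccne1 are higher in TSA arrays of every pair, and Gmeb2, Ing3 and Kmt5b are lower in every pair.

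To make up 24 named genes, the 23 with the next smallest p and 1 sign in all 3 pairs were taken. These did not pass the test, with adjusted p from 0.153 to 0.36, so their values are given as differences. Of the 24, 16 were higher and 8 lower, and in 22 the TSA and vehicle arrays did not overlap. Since small p and shared sign chose them, these counts describe the choice; over all genes, 14.3% were higher and 15.6% lower in all 3 pairs, and 2.34% and 3.09% had groups that did not overlap.

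The higher genes included Sox11, Fzd8, Fgf9 and Gdf11. Sox11, a transcription factor of immature neurons, was at 7.59, 7.36 and 7.18 in TSA arrays and at 6.99, 6.64 and 6.36 in vehicle arrays, a difference of 0.71 ± 0.14. Every TSA array was above every vehicle array. Its 8 neighbours on chromosome 12 differed by -0.09 to 0.09. Fzd8, a receptor for Wnt ligands, was at 6.69, 6.54 and 6.05 in TSA arrays and at 5.99, 5.82 and 5.47 in vehicle arrays (0.67 ± 0.16). Fgf9, a fibroblast growth factor made by neurons, was at 7.77, 7.86 and 8.22 in TSA arrays and at 7.16, 7.49 and 7.57 in vehicle arrays (0.54 ± 0.12). The groups of Fzd8 and of Fgf9 did not overlap either. Gdf11, a TGF-beta family ligand, differed by 0.36 ± 0.09.

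The corepressor paralogues Bcor and Bcorl1 and the cyclins Ccne1 and Ccnd2 were also among the 16 higher genes. Bcor, a corepressor of BCL6 and a component of a variant Polycomb complex, was at 6.10, 6.24 and 5.94 in TSA arrays and at 5.61, 5.81 and 5.33 in vehicle arrays (0.51 ± 0.12). Its paralogue Bcorl1 was at 7.19, 7.14 and 6.95 in TSA arrays and at 6.86, 6.67 and 6.24 in vehicle arrays (0.50 ± 0.10). Both genes had all TSA arrays above all vehicle arrays. Ccne1, cyclin E1, was at 7.60, 7.76 and 7.78 in TSA arrays and at 7.14, 7.27 and 7.34 in vehicle arrays (0.46 ± 0.10), with paired differences of 0.46, 0.50 and 0.44. Ccnd2, cyclin D2, differed by 0.36 ± 0.09. The rest of the higher genes were the thiamine transporter Slc19a2 (0.64 ± 0.14), Tbc1d31 (0.66 ± 0.15), the zinc finger genes Zfp516 (0.57 ± 0.13) and Zfp948 (0.52 ± 0.11), the glucose-sensing transcription factor Mlxip (0.48 ± 0.12), the PHD finger gene Phf23 (0.44 ± 0.10) and the syntaxin Stx2 (0.43 ± 0.09).

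The 8 lower genes began with Gmeb2, Ing3, Kmt5b and Setmar. Gmeb2, a transcription factor that binds glucocorticoid modulatory elements, was at 6.43, 6.20 and 5.53 in TSA arrays and at 6.91, 6.70 and 6.51 in vehicle arrays (-0.65 ± 0.12). Ing3, a subunit of the NuA4 acetyltransferase complex that reads methylated histone H3, was at 6.59, 6.39 and 6.90 in TSA arrays and at 7.21, 6.96 and 7.33 in vehicle arrays (-0.54 ± 0.10). Kmt5b, a methyltransferase of histone H4, was at 7.24, 7.23 and 7.05 in TSA arrays and at 7.63, 7.88 and 7.67 in vehicle arrays (-0.56 ± 0.12). All 3 of these genes had every TSA array below every vehicle array. Setmar, which holds a histone methyltransferase domain, was at 5.78, 4.74 and 5.66 in TSA arrays and at 5.88, 5.79 and 6.46 in vehicle arrays (-0.65 ± 0.14), with only -0.11 in pair 1. Siah1b, a ubiquitin ligase, differed by -0.50 ± 0.12, Zfp619 by -0.52 ± 0.12, Zfat by -0.43 ± 0.10 and Fastkd2, a mitochondrial RNA-binding protein, by -0.40 ± 0.08.

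**Figure D3:**
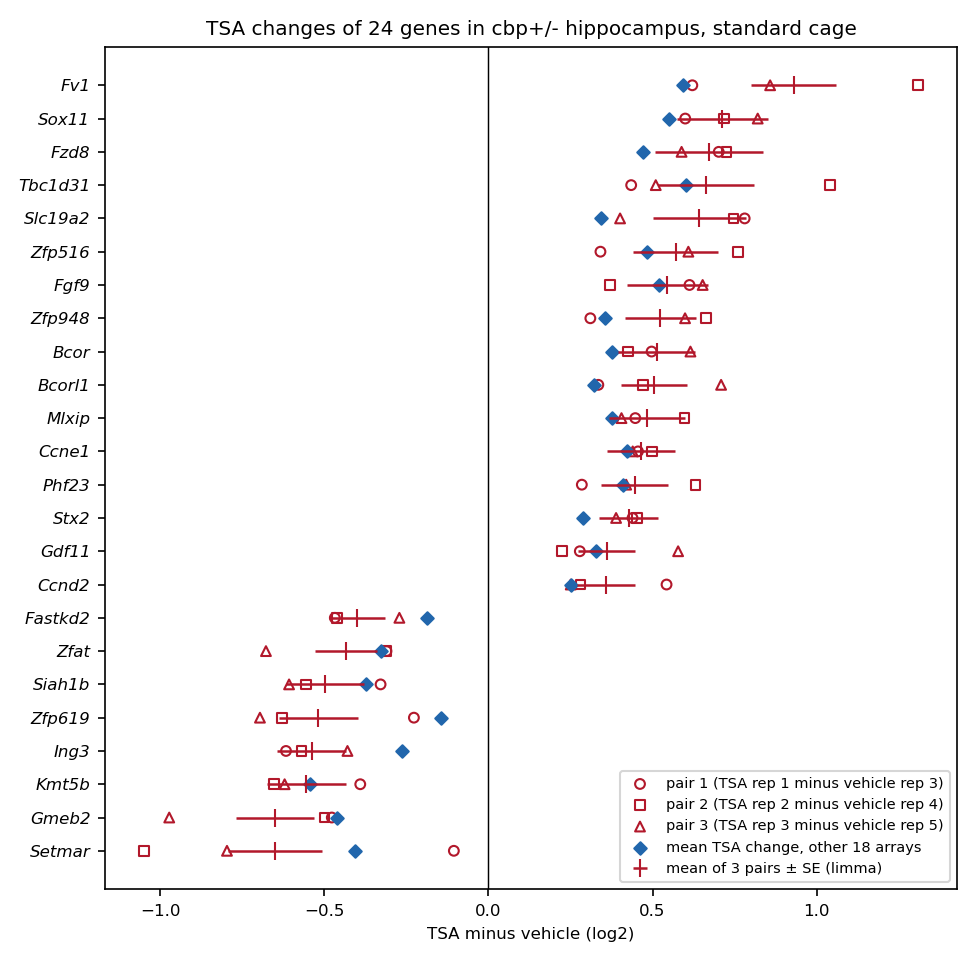
Paired differences (TSA minus vehicle, log2, horizontal axis) of the 24 named genes. Open red symbols are the 3 array pairs, red bars the mean ± SE of the limma fit, and blue diamonds the mean TSA change over the other 18 arrays. Fv1 (0.93) passed the test, and every diamond lies on the same side of 0 as the red mean.

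The same 24 genes were then read in the other 18 arrays. Their TSA differences did not enter the choice, but they come from the same 3 array sets and supplied most of the residual variance behind the p that chose the genes, so the count of tests passed there is not fully independent of it. All 24 had the same sign there in the mean over the 3 backgrounds, and 21 passed the test there (limma, adjusted p under 0.05), where 0.642% of all genes were called higher and 0.366% lower. Ing3 (-0.26, adjusted p = 0.0624), Fastkd2 (-0.19, 0.108) and Zfp619 (-0.14, 0.402) were those that did not pass. Sox11 rose by 0.55 in those arrays (adjusted p = 0.00165), Ccne1 rose by 0.42 (0.00273), Gmeb2 fell by 0.46 (0.00193) and Kmt5b fell by 0.54 (0.00165). All of these passes were counted with array set as a block, which no label names. Without that block the 18 arrays gave only 2 genes higher and none lower among all genes. The sign was shared in 24 genes in wild-type cage mice, in 23 in cbp+/- novelty mice and in 24 in wild-type novelty mice. Among the 486 genes higher at an unadjusted p under 0.05 in cbp+/- cage mice, 90.9% had the same sign in the other 18 arrays, and among the 555 lower genes 80.4% did. Over all genes the share was 61.1%.

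Promoters of 5 of these genes are shown as examples, chosen after their values were seen: the called gene Fv1, a developmental factor and a cyclin from the higher side, and a pair of histone regulators from the lower side. Each is the 250 bases before the first-listed RefSeq start in build GRCm38.p6, read 5′ to 3′ on the gene's strand. Capitals mark the GC box GGGCGG on either strand (CCGCCC on the other), the site of Sp1-type factors, and the cyclic AMP response element TGACGTCA, to which CREB binds. The regions are chr4:147868729-147868978 (plus strand) for Fv1, chr12:27342719-27342968 (minus) for Sox11, chr7:38107491-38107740 (minus) for Ccne1, chr6:21949321-21949570 (plus) for Ing3 and chr19:3767171-3767420 (plus) for Kmt5b.
Fv1: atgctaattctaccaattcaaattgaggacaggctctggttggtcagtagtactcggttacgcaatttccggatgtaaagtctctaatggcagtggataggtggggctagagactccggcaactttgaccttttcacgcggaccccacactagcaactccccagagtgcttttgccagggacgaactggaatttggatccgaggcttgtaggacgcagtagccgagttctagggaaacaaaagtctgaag
Sox11: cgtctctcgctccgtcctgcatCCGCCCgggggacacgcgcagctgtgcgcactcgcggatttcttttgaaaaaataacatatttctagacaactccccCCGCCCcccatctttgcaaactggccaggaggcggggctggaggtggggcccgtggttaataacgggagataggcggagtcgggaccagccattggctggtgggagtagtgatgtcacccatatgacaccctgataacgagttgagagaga
Ccne1: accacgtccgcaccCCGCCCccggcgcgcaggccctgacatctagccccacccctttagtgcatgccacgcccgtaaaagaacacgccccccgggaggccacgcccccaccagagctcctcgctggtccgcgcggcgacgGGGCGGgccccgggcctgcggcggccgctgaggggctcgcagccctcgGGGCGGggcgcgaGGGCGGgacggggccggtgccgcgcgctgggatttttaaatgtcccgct
Ing3: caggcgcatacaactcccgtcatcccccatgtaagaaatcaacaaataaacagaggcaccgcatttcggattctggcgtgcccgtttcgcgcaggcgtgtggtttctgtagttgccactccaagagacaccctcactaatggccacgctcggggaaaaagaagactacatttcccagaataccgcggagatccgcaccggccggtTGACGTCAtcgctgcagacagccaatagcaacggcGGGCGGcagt
Kmt5b: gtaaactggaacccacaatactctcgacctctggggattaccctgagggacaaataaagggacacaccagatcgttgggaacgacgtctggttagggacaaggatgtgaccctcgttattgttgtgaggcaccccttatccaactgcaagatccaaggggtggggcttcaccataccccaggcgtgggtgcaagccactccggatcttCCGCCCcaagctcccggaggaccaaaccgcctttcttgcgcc

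The windows held 0 GC boxes for Fv1, 2 for Sox11, 4 for Ccne1, 1 for Ing3 and 1 for Kmt5b, and Ing3 had 1 cyclic AMP response element. Of the 128 genes higher after TSA in the other 18 arrays, 104 had a promoter in the table, and 84 of these (80.8%) held a GC box. The share was 62.0% over the 8032 genes with a promoter among the 9969 brightest tested and 32.9% over the 27025 genes of the promoter table. Median GC content was 62.8% in the 104 promoters, 61.2% in the brightest genes and 52% in the whole table. The cyclic AMP response element was in 1.92% of the 104, 2.98% of the brightest genes and 1.62% of the table. Promoters were matched for 57 of the 73 lower genes (78.1%), under the 80% set as needed, so their check is void and no share is given. Over all tested genes 78.3% were matched, also under 80%, so no share over them stands beside the 80.8%. The median level was 6.54 in the 128 genes and 7.66 in the brightest genes, so these sets differ in level. A match is a description of the letters and not evidence of binding.

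Genes called in the other 18 arrays, which share no sample with the 6 compared but come from the same array sets, were then read in the 6. There were 128 genes higher and 73 lower after TSA in those arrays with array set as a block, which no label names. Without that block the same arrays gave 2 genes higher (median 0.59 in cbp+/- cage mice) and none lower. In cbp+/- cage mice 124 of the 128 had a positive difference, against 47.8% of all genes, and 103 (80.5%) were positive in all 3 pairs, against 14.3% of all genes. Their median difference was 0.29, with 0.26, 0.28 and 0.31 in the 3 pairs. Of the 73 lower genes 72 had a negative difference, against 52.2% of all genes, and 57 (78.1%) were negative in all 3 pairs, against 15.6% of all genes. Their median was -0.26, with -0.18, -0.27 and -0.29 in the pairs, and the median over all genes was -0.01. The differences ran from -0.26 to 0.93 in the higher list and from -0.66 to 0.01 in the lower list. Without array pair 1, which held the choroid plexus RNA, the medians were 0.30 and -0.29. Of the 24 injected arrays, 3 had a mean choroid plexus deviation over 0.9, and 2 of these were among the 6 compared. Lists rebuilt from the other 18 arrays without the remaining array held 84 and 53 genes. Of these, 80 and 53 had that sign without pair 1.

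**Figure D4:**
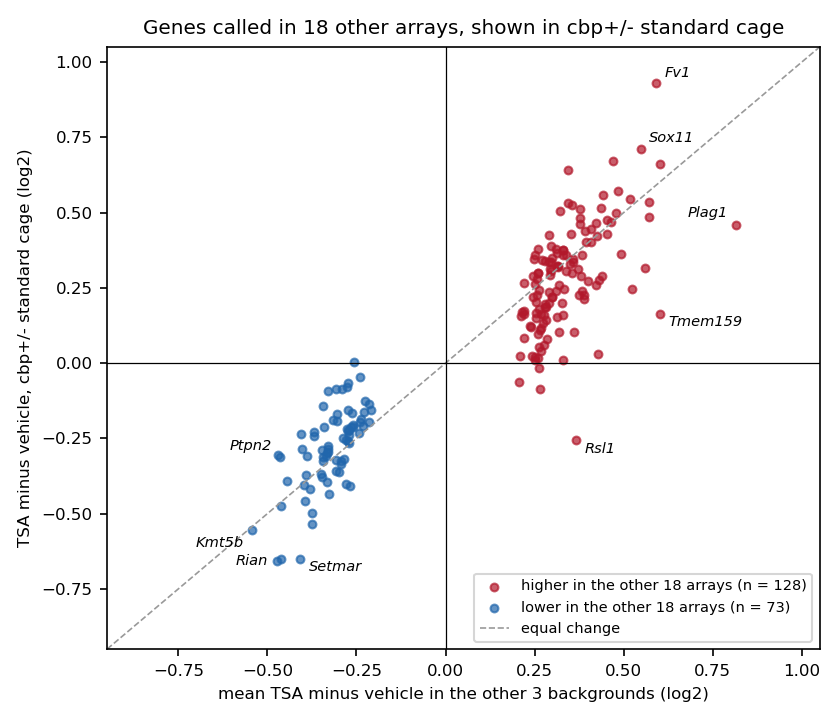
Each point is 1 of the 201 genes called in the other 18 arrays, with its mean TSA change there (log2, horizontal axis) and its difference in cbp+/- cage mice (log2, vertical axis). Red points are the 128 higher genes and blue points the 73 lower genes, and the dashed line marks equal change. All but 4 red points lie above 0 and all but 1 blue point below 0.

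Some of these genes are given with their values in both sets of arrays. The size of the change in the other 18 chose them, except Mex3a. That gene was named as a list member of small unadjusted p in the 6 compared. No difference or likeness between the sets is drawn from them. Plag1, a zinc finger transcription factor of developing tissues, was at 5.77, 5.80 and 6.26 in TSA arrays and at 5.44, 5.40 and 5.62 in vehicle arrays, a difference of 0.46 ± 0.13, against 0.82 in the other 18. Tmem159, a lipid droplet protein gene, was at 6.36, 6.35 and 6.90 in TSA arrays and at 6.46, 6.20 and 6.47 in vehicle arrays, a difference of 0.16 ± 0.15 against 0.60. The groups did not overlap for Plag1 and overlapped for Tmem159. Mex3a, an RNA-binding protein of progenitors, differed by 0.50 ± 0.13 in cbp+/- cage mice and by 0.48 in the other 18 arrays. L3mbtl3, a reader of methylated lysine, differed by 0.32 ± 0.11 and 0.56, with 0.04, 0.31 and 0.60 in the pairs.

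On the lower side, Rian, a maternally expressed long noncoding RNA of an imprinted cluster, was at 7.15, 6.79 and 7.04 in TSA arrays and at 7.06, 8.0 and 7.89 in vehicle arrays. Its difference was -0.66 ± 0.19, with 0.09, -1.20 and -0.86 in the pairs, so pair 1 did not share it. Zfp866 differed by -0.48 ± 0.12, with -0.44, -0.55 and -0.44 in the pairs. Ptpn2, a phosphatase that restrains JAK and STAT signalling, was at 6.73, 6.64 and 6.75 in TSA arrays and at 7.03, 6.99 and 7.04 in vehicle arrays (-0.31 ± 0.10, against -0.47 in the other 18). Its groups did not overlap. The 5 genes whose sign was opposite were Rsl1, Dctpp1, Zswim4, Dbf4 and Kat6b, named after their values were seen. Rsl1, a zinc finger repressor of sex-specific liver genes, differed by -0.26 ± 0.13 in cbp+/- cage mice and by 0.37 in the other 18 arrays. Its genotype by TSA interaction in the cage was -0.65 (95% interval -1.03 to -0.27, limma, adjusted p = 1). Dctpp1, Zswim4 and Dbf4 differed by -0.09, -0.06 and -0.02, and Kat6b by 0.01.

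Chromatin genes were read by role. Of the 11 class I, II and IV histone deacetylases, the targets of TSA and their relatives, 0 had an unadjusted p under 0.05, and their median difference was 0.01. Hdac1 was at 8.03, 8.33 and 8.64 in TSA arrays and at 8.14, 8.03 and 8.34 in vehicle arrays (0.17 ± 0.09), and the groups overlapped. It rose by 0.25 in the other 18 arrays (limma, adjusted p = 0.0146). Hdac2 differed by -0.08 ± 0.14 and Hdac3 by 0.07 ± 0.11. Among 10 acetyltransferases of the CBP, p300 and GNAT families 0 had an unadjusted p under 0.05, and Ep300, the p300 gene, differed by 0.08 ± 0.11. The sirtuin deacetylase Sirt1, which TSA does not inhibit, differed by -0.35 ± 0.14. It was the only 1 of 7 sirtuins with an unadjusted p under 0.05, and the median of the 7 was -0.04.

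Subunits of the NuA4 and MOZ/HBO1 acetyltransferase complexes had 20 negative and 9 positive differences. Of these 29 measured, 8 were lower at an unadjusted p under 0.05 and 0 higher, 13 were lower in all 3 pairs, and the median difference was -0.07. Besides Ing3, Yeats4, a reader of acetylated lysine, was at 7.34, 7.19 and 7.32 in TSA arrays and at 7.79, 7.56 and 7.98 in vehicle arrays (-0.49 ± 0.14). Ing5 was at 6.58, 6.29 and 6.06 in TSA arrays and at 6.97, 6.84 and 6.49 in vehicle arrays (-0.46 ± 0.14). The TSA arrays of Yeats4 lay below its vehicle arrays, and those of Ing5 overlapped with them. The enhancer of Polycomb homologues Epc1 and Epc2, which hold NuA4 together, differed by -0.26 ± 0.09 and -0.39 ± 0.14, and Dmap1, Kat5 and Brd8 by -0.22, -0.21 and -0.19. The count of 8 was 4 without array pair 2 and 4 without the pairing. In the other 18 arrays limma called 4 members lower at an adjusted p under 0.05, namely Ing5, Epc1, Epc2 and Kat6b. Over all genes 0.366% were called lower there. The list was chosen with earlier results of these data known, so this count is a description and no independent support. The list counts at an unadjusted p under 0.05 stand beside 2.44% of all genes higher and 2.78% lower at that p. Over all genes 52.2% had a negative difference, and 15.6% were lower in all 3 pairs.

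Corepressor subunits had 20 positive and 8 negative differences, while 47.8% of all genes were positive. Of these 28 members of the SIN3, NuRD, CoREST and NCoR complexes, 4 were higher and 1 lower at an unadjusted p under 0.05, with a median of 0.05. Rest, the repressor of neuronal genes that recruits CoREST, was at 5.90, 6.06 and 5.79 in TSA arrays and at 5.61, 5.32 and 5.37 in vehicle arrays (0.49 ± 0.14). Sin3a, the scaffold of the SIN3 deacetylase complex, was at 7.81, 8.01 and 7.90 in TSA arrays and at 7.49, 7.58 and 7.45 in vehicle arrays (0.40 ± 0.13). Both had all TSA arrays above all vehicle arrays, and both rose in the other 18 arrays, Rest by 0.57 and Sin3a by 0.40. Rcor1, the CoREST scaffold, differed by 0.26 ± 0.10, Chd4, the NuRD remodeller, by 0.23 ± 0.08, and the histone-binding subunit Rbbp4 by -0.20 ± 0.09. Of 40 lysine methyltransferases and demethylases, Kdm3a (0.36 ± 0.10) and Kdm2a (0.20 ± 0.09) were higher and Kmt5b and Kdm4a (-0.17 ± 0.07) lower at that p.

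**Figure D5:**
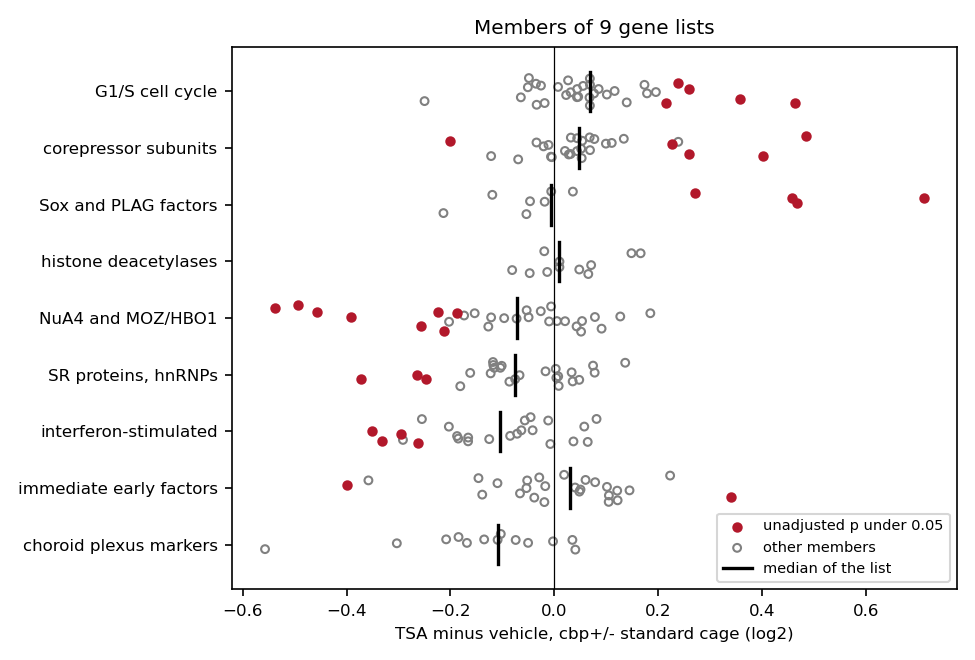
Differences (TSA minus vehicle, log2, horizontal axis) of the measured members of 9 gene lists. Filled red points have an unadjusted p under 0.05, open points do not, and black bars are list medians. The red points of NuA4 and MOZ/HBO1 (8) and of the interferon-stimulated genes (4) lie below 0, and those of the G1/S genes (5) and of the Sox and PLAG factors (4) above 0.

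Among transcription and splicing genes, the Mediator list had 1 member higher and 1 lower of 33 at an unadjusted p under 0.05. Med11 was at 5.97, 5.91 and 6.35 in TSA arrays and at 6.39, 6.82 and 6.63 in vehicle arrays (-0.53 ± 0.13), and Med25 differed by 0.28 ± 0.11. Mepce, which caps and stabilises the 7SK RNA that holds the elongation factor P-TEFb inactive, was at 7.31, 7.32 and 7.42 in TSA arrays and at 7.66, 7.61 and 7.90 in vehicle arrays (-0.37 ± 0.09). Mepce was the only 1 of 9 bromodomain and P-TEFb regulators at that p, and the median of the 9 was -0.08. The groups of Med11 and of Mepce did not overlap. Of 25 SR proteins and hnRNPs, which choose splice sites, 3 were lower and 0 higher at that unadjusted p. In all 3 pairs 11 were lower, against 15.6% of all genes, and the median was -0.08. Srsf6 differed by -0.37 ± 0.12, Srsf5 by -0.26 ± 0.09 and Tra2b by -0.25 ± 0.08.

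The Sox and PLAG developmental factors had 5 positive and 6 negative differences. Of these 11, 4 were higher and 0 lower at an unadjusted p under 0.05, and the median was -0.01. Beside Sox11 and Plag1, Sox4 was at 6.78, 6.56 and 5.78 in TSA arrays and at 6.12, 6.18 and 5.41 in vehicle arrays, which overlapped, with a difference of 0.47 ± 0.14. Plagl2 differed by 0.27 ± 0.12. Sox1 (-0.21) and Sox14 (-0.12) were lower in all 3 pairs, and the other 5 differed by -0.05 to 0.04. Sox11 also belonged to the 17 immature neuron markers, of which 3 were higher and 1, Mex3b (-0.30 ± 0.13), lower, with a median of 0.01.

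Of 33 genes of the passage from G1 to S phase, 5 were higher and 0 lower at an unadjusted p under 0.05. In all 3 pairs 10 were higher and 0 lower, against 14.3% and 15.6% of all genes. The median was 0.07. Beside the cyclins Ccne1 and Ccnd2, the cyclin-dependent kinase Cdk2 was at 5.25, 5.23 and 5.25 in TSA arrays and at 5.06, 4.93 and 5.02 in vehicle arrays (0.24 ± 0.09), without overlap. The phosphatase Cdc25a, which activates that kinase, differed by 0.26 ± 0.12, and E2f4, a repressive E2F factor, by 0.21 ± 0.10. In the other 18 arrays limma called 6 members higher and 0 lower at an adjusted p under 0.05. Over all genes 0.642% were called higher and 0.366% lower there. This list too was chosen with earlier results of these data known, so the count is a description. The replication gene Mcm2 differed by 0.07 ± 0.10 and E2f1 by 0.03 ± 0.08. The count of 5 was 3 without array pair 1, 3 without pair 2 and 3 without the pairing.

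Genes that neurons switch on with activity were read in these mice left in the cage. Of 26 immediate early transcription factors 1 was higher and 1 lower at an unadjusted p under 0.05, and the median was 0.03. Npas4, an activity-dependent factor of neurons, was at 5.98, 5.67 and 5.23 in TSA arrays and at 6.49, 6.0 and 5.59 in vehicle arrays (-0.40 ± 0.12). It was lower in every pair, although the groups overlapped. Egr2 differed by 0.34 ± 0.16, with 0.70 in pair 2 and 0.12 and 0.20 in the others. Fos differed by -0.36 ± 0.20, Arc by -0.23 ± 0.13 and Bdnf by 0.11 ± 0.09. Of 29 activity-induced effectors, Plk3 (0.41 ± 0.11), Gadd45b (0.38 ± 0.14) and Per1 (0.34 ± 0.14) were higher at that p. Gadd45b differed by 0.60, 0.59 and -0.05 in the pairs. It also differed by 0.42 in wild-type cage mice, and by -0.18 in cbp+/- novelty and -0.09 in wild-type novelty mice. Plk3 differed by 0.23 in wild-type cage, -0.03 in cbp+/- novelty and 0.26 in wild-type novelty mice, and Per1 by 0.08, -0.09 and -0.10 in the same order.

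Stress lists held few such members. Hspa1a, an inducible heat shock protein, was at 6.37, 6.66 and 6.80 in TSA arrays and at 6.19, 6.21 and 6.49 in vehicle arrays (0.31 ± 0.11), and Dnajb4 differed by 0.31 ± 0.12, as the only 2 of 17 chaperone genes at an unadjusted p under 0.05. Of 20 unfolded protein response genes, Creld2 differed by 0.24 ± 0.09 and Herpud1 by -0.21 ± 0.10. Per1 was the only 1 of 26 glucocorticoid-induced genes at that p. Differences in this list ran from -0.89 to 0.34, with 16 negative and a median of -0.04. The -0.89 was also the largest fall over all genes, but it did not reach that p. Of 32 oxidative phosphorylation genes 0 passed it, and their median was -0.05. Their differences were negative in 27, against 52.2% of all genes. Of 26 cytosolic ribosomal protein genes 0 passed, with a median of -0.05. Of 27 voltage-gated potassium channel genes 2 were higher and 0 lower at that p, with a median of 0.003. These were Kcng1, a modulatory subunit (0.38 ± 0.10), and Kcna3 (0.26 ± 0.11). Of 29 glutamate and GABA-A receptor subunits 0 were higher and 1 lower, Gabra2 (-0.32 ± 0.14), with a median of -0.007.

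Interferon-stimulated genes, which cells switch on against viruses, had mostly negative differences. Of 24 measured, 4 were lower and 0 higher at an unadjusted p under 0.05. The difference was negative in 20, against 52.2% of all genes. The median was -0.11, with -0.05, -0.13 and -0.15 in the pairs. Ifit2 was at 4.63, 4.46 and 4.76 in TSA arrays and at 4.85, 4.78 and 5.01 in vehicle arrays (-0.26 ± 0.08), with no overlap. Trim30a differed by -0.33 ± 0.12, Ifit1 by -0.35 ± 0.16 and Oas1a by -0.29 ± 0.14. These 4 genes were dim: their group means ran from 4.48 (Ifit1, TSA) to 5.32 (Oas1a, vehicle), under the lowest array median of 5.46. In pair 3, Ifit1 was at 4.56 after TSA and 5.31 after vehicle, and Ifit3 at 5.20 and 5.94. Vehicle replicate 5 of that pair was also the highest of the 6 arrays in the 11 microglia markers, with mean deviations of 0.06, -0.17 and 0.12 in TSA arrays and 0.02, -0.03 and 0.34 in vehicle arrays. The microglial receptor Cx3cr1 differed by -0.25 ± 0.12, as the only 1 of the 11 markers with an unadjusted p under 0.05. The part of microglial RNA in the interferon-stimulated genes was not tested, and in tissue RNA fewer cells of a type and less RNA per cell cannot be told apart. In the other 18 arrays the median of this list was -0.01.

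The difference in TSA response between cbp+/- and wild-type mice was tested directly. For the genotype by TSA interaction in the standard cage limma called 0 of 19938 genes, with 405 (2.03%) at an unadjusted p under 0.05. For the TSA difference in the cage against that during novelty in cbp+/- mice, limma called 0 genes, with 429 (2.15%) at that p. A p that misses the threshold does not show that the responses were alike. In Fv1 the difference was 0.93 ± 0.13 in cbp+/- and 0.83 in wild-type cage mice, an interaction of 0.10 (95% interval -0.28 to 0.48). In Sox11 the interaction was 0.21 (-0.20 to 0.61), in Kmt5b 0.04 (-0.31 to 0.39) and in Ing3 -0.31 (-0.62 to -0.01), and these 4 had a limma adjusted p of 1. Lists made in the same way for each background from its other 18 arrays had medians of 0.29 and -0.26 in cbp+/- cage mice (128 and 73 genes), 0.19 and -0.17 in wild-type cage mice (294 and 201), 0.23 and -0.17 in cbp+/- novelty mice (198 and 150) and 0.28 and -0.27 in wild-type novelty mice (175 and 96). The lists differ in length, so these medians are given as a description.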

How the data were processed

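Pooled hippocampal RNA was hybridised to Affymetrix Mouse Gene 1.0 ST arrays. The deposited values are log2 expression values, which the authors made by RMA, per the submitters' processing notes, and analysed in GeneSpring GX 11, per the labels' protocols; no source used here names a genome build. RMA makes arrays alike in distribution, which hides any change common to most transcripts. Of 35556 transcript clusters, 21789 had 1 gene symbol, and the brightest cluster of each gene gave 19938 genes. Another 13767 clusters, with several symbols or none, gave 0 calls and 482 at an unadjusted p under 0.05.

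Limma 3.58.1 in R 4.3.3 was fitted with 1 mean per group to the 24 injected arrays, with array set as a block, empirical Bayes variances, two-sided tests, Benjamini-Hochberg adjustment and a threshold of 0.05. The same model without the 6 compared arrays gave the mean TSA change over the other 18. The labels name no pairs. Vehicle replicates 3, 4 and 5 were paired with TSA replicates 1, 2 and 3 because their deviations from the group means correlated at 0.76, 0.63 and 0.81, against -0.59 to -0.14 across pairs, and the median residual SD was 0.127 with the block and 0.183 without. Deviations from a group mean cancel out, so high correlations within pairs push those across pairs down. Both measures come from the values that chose the pairing, so they are no independent check of it. The arrays come from separate pools, per the labels. Alternatives were no block, the labels' replicate numbers as a block, other array sets, array weights, normalization, filters and leaving out each array or pair.

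The members, gene lists, array pairs and tests were chosen with earlier results of these data known. The naming rule took called genes with 1 sign in all 3 pairs, filled up to 24 by smallest p, up to 4 members per list by p, up to 6 interaction genes and 20 fixed genes, of which 18 were measured; predicted genes were only counted. Of 39 lists with 757 entries, 694 were measured, and lists got counts and medians but no test. Promoters are from RefSeq, GRCm38.p6.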

Additional observations from a re-analysis of the deposited data

Results flagged for a closer look

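Some of the 96 genes examined one by one had one sign in every cbp+/- cage pair and the opposite sign in every pair of another background. There were 2 against wild-type cage, 3 against cbp+/- novelty and 4 against wild-type novelty mice. Over all 19938 genes the shares were 1.88%, 1.81% and 2.9%. The first 5 genes below were among the 96 because of their small interaction p, and none passed limma's interaction test (adjusted p of 1 in each, over all genes). Apip, an enzyme of methionine salvage, differed by -0.24 after TSA in cbp+/- cage mice and by 0.31 in wild-type cage mice, an interaction of -0.55 (95% interval -0.83 to -0.28). Mis12, a kinetochore gene, differed by -0.21 in cbp+/- and by 0.47 in wild-type cage mice, an interaction of -0.68 (-1.05 to -0.31). Against cbp+/- novelty mice, the olfactory receptor gene Olfr710 differed by 0.19 in the cage and by -0.41 during novelty, an interaction of 0.60 (0.31 to 0.88). Nbl1, a secreted BMP antagonist, differed by -0.23 in the cage and by 0.27 during novelty, an interaction of -0.50 (-0.75 to -0.25). Ccdc28b, a cilium gene, differed by 0.25 in the cage and by -0.19 during novelty, an interaction of 0.44 (0.21 to 0.67). Against wild-type novelty mice, where the difference was not tested, Per1 differed by 0.34 in cbp+/- cage and by -0.10 in wild-type novelty mice, Oas1a by -0.29 and 0.32, Mis12 by -0.21 and 0.18, and Nbl1 by -0.23 and 0.11.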

How the results depend on the processing

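The count of 1 called gene was also 1 with all 28 arrays, an intensity trend, dim genes left out, repeated quantile normalization and the mean over a gene's clusters. It was 0 without the replicate block, 0 with only the 6 arrays, 0 with only the 12 cbp+/- arrays, 0 with naive and vehicle as 1 control group of 5, and 9 with array weights. Leaving out 1 array or pair gave 0 to 2. Fv1 kept its direction in all 20 alternatives (0.74 to 1.08) and passed in 11. Blocking on the labels' replicate numbers, of which the compared groups share only number 3, called 3635 genes (1411 higher, 2224 lower) and 2057 for the housing interaction. The genotype interaction count stayed at 0 in each of the 5 alternatives run. The median of the higher list was 0.27 to 0.30 and that of the lower list -0.29 to -0.24 without 1 pair. Without the block in the other 18 arrays the higher list held 2 genes (median 0.59), and the lower list had none and no value. The 8 lower NuA4 and MOZ/HBO1 members became 4 without pair 2 and 4 without the replicate block.

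Of 96 genes, 71 kept one direction throughout, and 25 had 32 reversed values. With the labels' numbers as block these were Fastkd2 0.094, Fzd8 -0.0783, Med25 -0.35, Rcor1 -0.16, Tra2b 0.17, Srsf5 0.59, Sox4 -0.15, Plk3 -0.0095, Per1 -0.64, Egr2 -0.39, Kdm2a -0.47, Ptpn1 -0.0117, Kcng1 -0.48, Kcna3 -0.21, Apip 0.10, Crebbp -0.36, Ep300 -0.57, Hdac2 0.30, Hdac3 -0.14, Rian 0.0629, Kansl1l 0.22 and Rdh14 0.67. Without pair 1 they were Serpina1c 0.0613, Crebbp -0.067 and Ep300 -0.0146. Leaving out 1 array gave Serpina1c -0.20 to 0.0344 and, with vehicle replicate 3 out, Crebbp -0.0355. Ttr was 0.0761 with the control group of 5, 0.20 with array weights, and ran from -1.18 to 0.62 when 1 array was left out (0.33 with TSA replicate 2 out), and Arc was 0.12 with the control group of 5. The cause was not tested. With 3 pairs, a change under about 0.21 lies within the median 95% interval. The reversals were not confined to such small changes. In the main fit Fzd8 differed by 0.67, Rian by -0.66 and Sox4 by 0.47, and these reversed with the labels' numbers as block. That block links the compared groups only through number 3, where TSA and vehicle deviations correlated at -0.59.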
